A study of Homo sapiens with 3 samples.

Results

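Genes whose names mark them as potassium, sodium or calcium channel genes were examined in H660 cells. They are the rows of the deposited gene table whose symbol starts with KCN, matches SCN followed by a number and A or B, or starts with CACNA, CACNB or CACNG, without symbols of antisense or opposite-strand transcripts. There were 139 such genes among 58735, of which 99 were potassium, 14 sodium and 26 calcium channel genes. H660, labelled parental, is a line of human prostate cancer cells with neuroendocrine character, and JG231 inhibits the chaperone HSP70 at an allosteric site. Cells were treated for 24 h with the vehicle DMSO, with 2.5 μM JG231 or with 5 μM JG231, and 1 RNA-seq library was available for each condition. No standard deviation or p-value could therefore be obtained, the DMSO library served as the control for each dose, and every difference is one between libraries. Where 3 values of a gene follow each other, they are in the order DMSO, 2.5 μM, 5 μM, and ratios are to DMSO. The intervals in parentheses are 95% intervals of the ratio and cover counting error only. The cells come from a single tumor line, and the labels call the cell type a prostatic adenocarcinoma.

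Voltage-gated channels open when the membrane potential changes. Sodium channels carry the upstroke of the action potential, calcium channels couple depolarization to secretion and gene expression, and potassium channels repolarize the membrane. Neuroendocrine cells are electrically excitable and release granules on calcium entry. The KCN symbols take in more than voltage-gated channels. By role, 40 of the 99 potassium channel genes encode voltage-gated (Kv) pore subunits, 15 tandem-pore-domain (K2P) leak channels, 16 inward rectifiers (Kir), 8 calcium- or sodium-activated channels and 18 auxiliary or modulatory proteins. The last 2 are a pseudogene and a non-coding transcript. KCNE1B, counted by its name among the auxiliary genes, is annotated as an artifact and not as protein-coding. The sodium channel genes comprise 10 pore-forming alpha and 4 beta subunits. The calcium channel genes comprise 10 pore-forming alpha1, 4 alpha2delta, 4 beta and 8 gamma subunits.

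The depth recovered from the steps of the FPKM values was 16.1 M fragments in the DMSO library, 20.4 M at the lower and 24.04 M at the higher dose. Genes with any signal numbered 21862, 19352 and 17293 in the same order, so the deeper libraries listed fewer genes. All 7 neuroendocrine markers had FPKM averaging 1 or more, and their summed FPKM was 449 in DMSO against 186 and 158 at 2.5 and 5 μM. The granule proteins CHGA and CHGB were at 46.0, 15.0 and 12.7 FPKM and at 20.5, 10.01 and 7.44 FPKM. Of 6 prostate luminal markers 1 reached a mean of 1, and KLK2 was listed at 0 in all libraries. Of 6 fibroblast and immune markers none reached a mean of 1, DCN, PTPRC and CD3E were at 0, and their summed FPKM lay between 0.811 and 1.32. SYP was at 17.7, 13.0 and 14.8 FPKM, ENO2 at 37.0, 30.8 and 27.8 FPKM, and INSM1, the exception at 2.5 μM, at 13.4, 16.3 and 10.504 FPKM. By the limits for calls given below, 6 of the 7 markers were lower and 1 higher at 2.5 μM and 7 lower at 5 μM. Of all genes that could be called, 43.4% were lower and 36.4% higher at 2.5 μM and 45.1% lower at 5 μM. The part of the neuroendocrine markers in the channel results was not tested. In bulk RNA, fewer cells of a kind and less RNA per cell cannot be told apart.

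Most channel genes were listed at 0 or at low values. Of the 139, 40 were listed at 0 in all 3 libraries, 55 were above 0 but never over 1 FPKM, and 44 were over 1 FPKM in at least 1 library. The 44 consist of 31 potassium, 2 sodium and 11 calcium channel genes. Those at 0 throughout include the Kv genes KCNA1, KCNA4, KCNA5 and KCNA6, the G protein-gated rectifiers KCNJ6 and KCNJ9, the sodium channel genes SCN1A, SCN2B and SCN3B and the skeletal muscle calcium channel gene CACNA1S. Among the 55 low genes, 35 had their highest value in the DMSO library. The number of channel genes listed at 0 was 52 in DMSO against 59 and 67 at 2.5 and 5 μM. Over all 58735 genes it was 36873 in DMSO against 39383 and 41442. From DMSO to 2.5 μM, 17 channel genes went from above 0 to 0 and 10 the other way. From DMSO to 5 μM, 19 went from above 0 to 0 and 4 the other way, with no lost gene above 0.880 FPKM in DMSO. Losses, gains and the highest values of low genes were not counted over all genes. Genes whose FPKM averaged 1 or more over the 3 libraries are called expressed below, and there were 30 of them, of which 23 were potassium, 1 sodium and 6 calcium channel genes. Closest below that limit were KCNK6 at a mean of 0.934, CACNB1 at 0.891 and KCNAB3 at 0.856 FPKM, and closest above it were KCNG3 at 1.31, KCNC1 at 1.34 and KCNH3 at 1.37 FPKM.

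**Figure D1:**
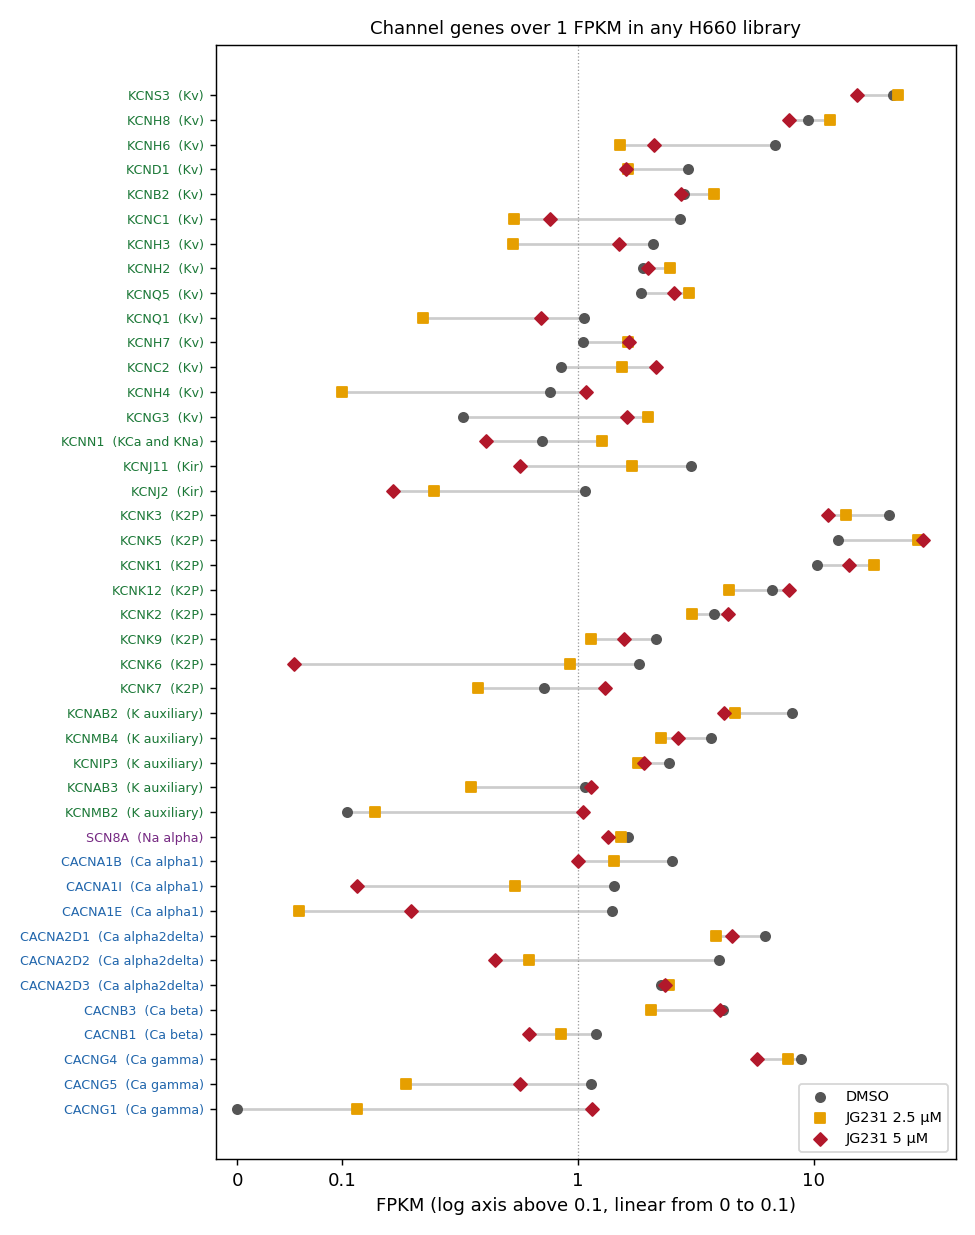
FPKM of channel genes over 1 FPKM in any library, apart from those not reported here, 1 point per library (DMSO, 2.5 μM, 5 μM), arranged by role, on an axis that is logarithmic above 0.1 and linear below, with a dotted line at 1 FPKM. KCNK5 is at 12.6 FPKM in DMSO and 29.0 at 5 μM, while CACNA2D2 is at 3.98 and 0.447.

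A gene was called higher or lower when its FPKM was over 1 in either library compared and its log2 change, log2((FPKM + 0.1)/(DMSO FPKM + 0.1)), exceeded 0.25 in size, the limits of the study's methods. At 2.5 μM, 39 channel genes could be called, of which 10 (25.6%) were higher and 25 (64.1%) lower than in DMSO. Among all 15746 genes that could be called, 36.4% were higher and 43.4% lower. At 5 μM, 11 of 43 channel genes (25.6%) were higher and 25 (58.1%) lower, against 36.5% and 45.1% of 15765 genes. At each dose 11 of the 25 lower channel genes were over 1 FPKM in DMSO but not at that dose, so they could be called in no other direction, and this held for 2636 of 6830 lower genes at 2.5 μM and 2861 of 7112 at 5 μM. Likewise 3 of the 10 higher channel genes at 2.5 μM and 7 of the 11 at 5 μM were over 1 FPKM at that dose but not in DMSO. Among all genes this held for 954 of 5728 higher genes at 2.5 μM and 974 of 5755 at 5 μM. Among the 30 channel genes with a mean over the 3 libraries of 1 or more, a limit added after the data were seen, 9 were higher and 17 lower at 2.5 μM and 6 and 18 at 5 μM. For all 13785 genes past that limit the shares were 38.4% higher and 38.3% lower, and 38.6% and 40.2%. With a mean of at least 5, 3 of 8 channel genes were higher and 3 lower at 2.5 μM (48% and 26.1% of 7583 genes), and 2 were higher and 5 lower at 5 μM (48.8% and 27.4%). Without a limit, 23 of 139 were higher and 63 lower at 2.5 μM (13.4% and 19.9% of 58735 genes) and 19 and 61 at 5 μM (12.2% and 20.8%), where 40 of the 139 and 34599 of all genes were at 0 throughout. With changes over 1, 2 channel genes were higher and 11 lower at 2.5 μM (all genes 12.9% and 21.7%), and 6 were higher and 10 lower at 5 μM (all genes 14.7% and 24.3%). At that limit the lower share at 5 μM, 23.3%, was close to that of all genes. When mitochondrial and small RNA genes were left out of the library totals, the calls became 7 higher and 29 lower at 2.5 μM and 6 higher and 32 lower at 5 μM. The median log2 change of all expressed genes then became -0.28 in place of 0.00 at 2.5 μM and -0.38 in place of -0.01 at 5 μM, so these counts have to be read against that shift.

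The 3 classes differed in level and in the size of their change. Summed FPKM of the potassium channel genes was 150.0 in DMSO against 142 and 133 at 2.5 and 5 μM. For the calcium channel genes the sums were 34.5, 20.8 and 21.6 FPKM, and for the sodium channel genes 3.99, 3.14 and 2.98 FPKM. The calcium channel sum at 2.5 μM was 0.603 of that in DMSO and the potassium channel sum 0.946, and at 5 μM these ratios were 0.625 and 0.887. The 6 expressed calcium channel genes had median log2 changes of -0.74 (2.5 μM) and -0.54 (5 μM), and the 23 expressed potassium channel genes had -0.42 and -0.33. The corresponding medians were -0.50 and -0.38 over the 30 channel genes and 0.05 and 0.02 over all expressed protein-coding genes. With so few calcium channel genes and 1 library per condition, no test between the classes was possible.

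**Figure D2:**
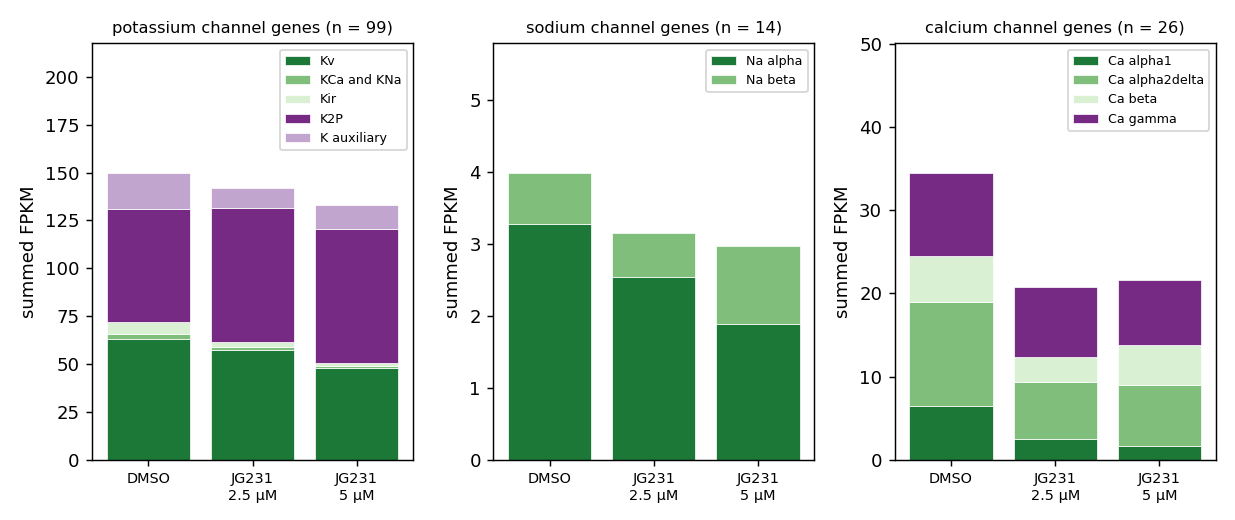
Summed FPKM of the channel genes by role in the DMSO, 2.5 μM and 5 μM libraries, 1 library each, with axes starting at 0. The K2P sum goes from 59.3 in DMSO to 70.0 at 5 μM while the calcium channel alpha1 sum goes from 6.46 to 1.65.

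K2P channels pass potassium at rest and help to set the resting potential. Their summed FPKM was 59.3 in DMSO against 69.7 and 70.0 at 2.5 and 5 μM, which was 39.5%, 49.1% and 52.6% of the potassium channel sum. The higher K2P sum rested on KCNK5. Without this gene the sum was 46.6, 41.8 and 41.0 FPKM, and with mitochondrial and small RNA genes left out of the totals the ratio of the whole K2P sum to DMSO turned from 1.18 at both doses to 0.960 at 2.5 μM and 0.907 at 5 μM. The other potassium channel genes together were at 90.7, 72.2 and 63.1 FPKM.

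KCNK5, a leak channel opened by alkaline pH, was at 12.6 FPKM in DMSO against 27.8 and 29.0 at 2.5 and 5 μM. Among the 139 genes it had the highest FPKM in both JG231 libraries and ranked below KCNS3 and KCNK3 in DMSO. These levels correspond to about 769, 2144 and 2636 fragments, and the ratios to DMSO were 2.20 (2.03 to 2.39) and 2.29 (2.11 to 2.49). Log2 changes were 1.13 and 1.19. As the only gauge of how far single genes move between libraries, the log2 difference between the JG231 libraries over the 500 genes nearest to it in level had a robust SD of 0.245. KCNK1, a weakly conducting leak channel, was at 10.3, 18.0 and 14.1 FPKM. Its ratios were 1.74 (1.53 to 1.99) and 1.37 (1.201 to 1.56), so the higher value belonged to the lower dose. Its call at 5 μM was lost with mitochondrial and small RNA genes left out of the totals (log2 change 0.071) and with the length trend removed (0.18).

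KCNK3, an acid-sensitive leak channel, was at 20.9 FPKM in DMSO against 13.8 and 11.5 at 2.5 and 5 μM. Its ratios of 0.661 (0.620 to 0.705) and 0.553 (0.519 to 0.590) put it below its DMSO level at each dose, with log2 changes of -0.59 and -0.85 and a robust SD of 0.263 among genes of like level. The related KCNK9 was at 2.15, 1.14 and 1.57 FPKM. KCNK6 was at 1.82, 0.923 and 0.0539 FPKM, the last resting on about 7 fragments. KCNK12 was at 6.64, 4.40 and 7.88 FPKM and KCNK2, a mechanosensitive channel, at 3.78, 3.06 and 4.33 FPKM. Both were above DMSO at 5 μM as deposited and below it when mitochondrial and small RNA genes were left out of the totals. KCNK12 also overlaps another expressed gene, and whether strand was used in counting is not stated.

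The promoter windows of the 5 genes that carry these contrasts, 3 K2P genes and the strongly lower KCNH6 and CACNA2D2, are shown to make their base composition visible. Each holds 250 bases before and 50 after the annotated start, from RefSeq on GRCh38.p14, 5′ to 3′ on the strand of the gene. They lie at chr6:39229426-39229725 (minus strand) for KCNK5, chr1:233613856-233614155 (plus) for KCNK1, chr2:26692472-26692771 (plus) for KCNK3, chr17:63523108-63523407 (plus) for KCNH6 and chr3:50504195-50504494 (minus) for CACNA2D2. Capitals mark the GC box GGGCGG in KCNK5 and KCNK1, and the REST half-sites TTCAGCACC and GGACAG, on either strand, in KCNK3, KCNH6 and CACNA2D2. GC boxes numbered 3 in KCNK5, 7 in KCNK1, 7 in KCNK3, 2 in KCNH6 and 0 in CACNA2D2. Those of KCNK3 and KCNH6 are left in lower case, so the capitals do not separate higher from lower genes by GC box. REST is a repressor of neuronal genes, many of which encode ion channels.
KCNK5: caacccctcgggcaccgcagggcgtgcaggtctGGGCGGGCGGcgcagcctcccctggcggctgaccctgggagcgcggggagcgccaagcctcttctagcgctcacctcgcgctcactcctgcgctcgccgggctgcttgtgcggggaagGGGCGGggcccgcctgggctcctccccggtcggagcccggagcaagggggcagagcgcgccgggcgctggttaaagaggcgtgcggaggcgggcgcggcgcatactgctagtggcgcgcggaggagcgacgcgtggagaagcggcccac
KCNK1: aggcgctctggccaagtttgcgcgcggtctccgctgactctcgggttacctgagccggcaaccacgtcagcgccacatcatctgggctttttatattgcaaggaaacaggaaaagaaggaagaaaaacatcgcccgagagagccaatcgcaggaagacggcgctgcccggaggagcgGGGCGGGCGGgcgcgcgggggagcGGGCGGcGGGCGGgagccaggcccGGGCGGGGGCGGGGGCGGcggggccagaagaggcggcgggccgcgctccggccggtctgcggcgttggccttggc
KCNK3: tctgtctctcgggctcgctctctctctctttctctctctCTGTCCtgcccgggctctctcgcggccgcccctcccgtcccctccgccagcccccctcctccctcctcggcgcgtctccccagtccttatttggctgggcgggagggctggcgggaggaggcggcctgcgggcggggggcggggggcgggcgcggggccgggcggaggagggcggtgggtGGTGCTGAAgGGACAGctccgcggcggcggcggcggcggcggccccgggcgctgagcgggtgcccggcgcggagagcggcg
KCNH6: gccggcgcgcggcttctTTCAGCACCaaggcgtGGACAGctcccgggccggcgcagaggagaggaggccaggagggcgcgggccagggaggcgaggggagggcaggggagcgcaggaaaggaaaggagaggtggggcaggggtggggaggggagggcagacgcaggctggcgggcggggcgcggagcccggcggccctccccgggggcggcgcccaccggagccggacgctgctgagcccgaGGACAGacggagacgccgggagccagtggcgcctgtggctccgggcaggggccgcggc
CACNA2D2: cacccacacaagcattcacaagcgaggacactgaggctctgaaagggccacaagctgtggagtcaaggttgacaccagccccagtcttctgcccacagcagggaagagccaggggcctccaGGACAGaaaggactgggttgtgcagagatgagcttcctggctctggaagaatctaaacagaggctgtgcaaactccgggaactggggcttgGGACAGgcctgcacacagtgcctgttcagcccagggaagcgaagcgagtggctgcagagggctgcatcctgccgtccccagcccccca
KCNH6 held the left REST half-site at bases 18 to 26 of the window and right ones at bases 34 to 39 and 243 to 248, all on the strand of the gene. KCNK3 held the left half-site at bases 220 to 228 on the opposite strand. The right half-site next to it, at bases 230 to 235, was on the strand of the gene, so this pair is not in the same orientation. Another right half-site of KCNK3, at bases 40 to 45, was on the same strand as the left one but far from it. The left half-site was present in 2 of 21 matched windows of expressed channel genes, in 3 of 99 matched channel gene windows and in 0.403% of 27305 promoter windows, and the right one in 7 of 21, 26 of 99 and 20.5%. The GC box was found in 17 of 21, 61 of 99 and 44.6%. Its copies can overlap one another, as at bases 34 to 39 and 38 to 43 of KCNK5. The E-box CACGTG, a site for Myc proteins among others, was found in 1 of 21 windows (CACNA1B), in 5 of 99 and in 7.43% of all, and the stress element TGATGNAA in 0 of 21, 4 of 99 and 3.67%. All motifs were searched on both strands. Median GC content was 76.0% in the 21 windows, 62.5% in the 28 matched windows of channel genes listed at 0, and 58.3% in all windows. REST itself was at 5.43, 5.55 and 5.65 FPKM. A match to these letters describes the window and says nothing on binding.

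Kv pore subunits formed the group with the most genes, with summed FPKM of 63.2 in DMSO against 57.2 and 47.7 at 2.5 and 5 μM. At 2.5 μM 7 of 14 were called higher and 6 lower, and at 5 μM 5 of 15 were called higher and 8 lower, next to 36.4% and 43.4%, and 36.5% and 45.1%, of all genes. KCNS3, an electrically silent subunit that modifies KCNB channels, had the highest FPKM of the 139 genes in DMSO, at 21.6. At 2.5 μM it was at 22.8, and the interval of its ratio, 0.960 to 1.15, includes 1. At 5 μM it was at 15.3 FPKM with a ratio of 0.708 (0.644 to 0.781). KCNG3, another silent subunit, was at 0.325, 1.99 and 1.62 FPKM. Its ratios of 6.12 (3.85 to 10.6) and 4.98 (3.13 to 8.66) were the highest among expressed channel genes, and they start from about 19 fragments in DMSO. KCNB2, a pore subunit with which such silent subunits assemble, was at 2.83, 3.77 and 2.75 FPKM.

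The KCNC genes encode fast channels of rapidly firing neurons, and the members of this family differed in direction. KCNC1 was at 2.72 FPKM in DMSO against 0.538 and 0.764 at 2.5 and 5 μM, with ratios of 0.198 (0.140 to 0.273) and 0.281 (0.213 to 0.367). KCNC2 was at 0.845, 1.55 and 2.14 FPKM, with ratios of 1.83 (1.39 to 2.43) and 2.54 (1.97 to 3.32). Log2 changes at the respective doses were -2.14 and -1.70 for KCNC1, and 0.80 and 1.25 for KCNC2. Genes of like level had robust SDs of 0.952 and 0.894 between the JG231 libraries. KCNC2 at either dose and KCNC1 at 5 μM lay within 2 such SDs.

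The KCNH genes encode the ether-à-go-go family. KCNH6 was at 6.88 FPKM in DMSO against 1.504 and 2.11 at 2.5 and 5 μM, with ratios of 0.219 (0.176 to 0.269) and 0.307 (0.257 to 0.365). Both JG231 values were far below DMSO, and the lower one belonged to the lower dose. KCNH2, whose product repolarizes the heart, was at 1.88, 2.46 and 1.98 FPKM. The interval of its ratio at 5 μM, 0.838 to 1.32, includes 1. KCNH7 was at 1.05, 1.63 and 1.65 FPKM, with ratios of 1.55 (1.16 to 2.08) and 1.58 (1.18 to 2.10). Its log2 changes of 0.59 and 0.61 lay inside the robust SD of 0.859 among genes of like level. KCNH8 was called higher at 2.5 μM and lower at 5 μM, with values of 9.504, 11.8 and 7.89 FPKM. The first call was lost with mitochondrial and small RNA genes left out of the totals (log2 change 0.015) and the second with the length trend removed (-0.03). KCNH3 was at 2.09, 0.532 and 1.49 FPKM. KCNH7 overlaps the expressed gene GCA and KCNH3 overlaps MCRS1, so their values are uncertain. Of the other Kv genes, KCND1, an A-type channel, was at 2.92, 1.63 and 1.60 FPKM, and KCNQ5, which carries the M-current, at 1.86, 2.97 and 2.56 FPKM. KCNQ1 was at 1.06, 0.221 and 0.701 FPKM.

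Inward rectifiers favor potassium entry and hold the membrane near rest. Their sum was 6.21 FPKM in DMSO against 2.71 and 1.61 at 2.5 and 5 μM, or 0.437 and 0.259 of DMSO. Of the 16 Kir genes, 6 were listed at 0 in DMSO against 11 and 12 at 2.5 and 5 μM. Of all 58735 genes, 36873 were at 0 in DMSO against 39383 and 41442. In DMSO the largest contribution to the Kir sum was that of KCNJ11, the pore of the ATP-sensitive channel, at 3.01, 1.70 and 0.571 FPKM. Its ratios were 0.565 (0.442 to 0.719) and 0.190 (0.135 to 0.265), with log2 changes of -0.79 and -2.21 against a robust SD of 0.712. Its regulatory partner ABCC8 was at 0.0543 FPKM in DMSO and at 0 in both JG231 libraries. KCNJ2, a strong rectifier, was at 1.07, 0.246 and 0.164 FPKM. KCNJ12 was at 0.365, 0 and 0.673 FPKM and KCNJ18 at 0 throughout. These are near-identical copies, and how their reads were assigned is not stated.

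Calcium- and sodium-activated potassium channels were low throughout, with a sum of 2.54 FPKM in DMSO against 1.76 and 1.39 at 2.5 and 5 μM. The BK channel pore gene KCNMA1 was at 0.0471, 0.0730 and 0.0525 FPKM. KCNN1, a small-conductance channel, was at 0.703, 1.27 and 0.407 FPKM. By contrast the BK auxiliary subunit KCNMB4 was at 3.67, 2.26 and 2.67 FPKM. The auxiliary proteins as a group summed to 18.8, 10.6 and 12.4 FPKM, and 4 of 4 were called lower at 2.5 μM (43.4% of all genes), of which KCNAB3 was over 1 FPKM in DMSO and not at that dose. At 5 μM 3 of 5 were called lower (45.1% of all genes) and 1 higher (36.5%). KCNAB2, a Kv beta subunit, was at 8.13, 4.62 and 4.18 FPKM with ratios of 0.569 (0.498 to 0.648) and 0.515 (0.452 to 0.585), but it overlaps NPHP4 on the other strand. KCNIP3, a calcium-binding modulator of A-type channels, was at 2.43, 1.80 and 1.92 FPKM. The gene called higher, KCNMB2, was at 0.105, 0.139 and 1.06 FPKM, with about 4 fragments in DMSO.

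Another 3 potassium channel genes had their highest values between 1.08 and 1.30 FPKM, each at 5 μM. The Kv gene KCNH4 was at 0.760, 0.1001 and 1.08 FPKM, the leak channel gene KCNK7 at 0.716, 0.377 and 1.30 FPKM, and the Kv beta subunit gene KCNAB3 at 1.07, 0.354 and 1.14 FPKM. The intervals of their ratios at 5 μM, 0.994 to 2.07, 0.929 to 3.71 and 0.732 to 1.54, all include 1, as does that of KCNK7 at 2.5 μM, 0.206 to 1.38, and KCNAB3 at 5 μM came below DMSO when mitochondrial and small RNA genes were left out of the totals.

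Sodium channel genes were the smallest class. SCN8A, a pore subunit of neurons, was the only expressed one, at 1.63 FPKM in DMSO against 1.53 and 1.34 at 2.5 and 5 μM. The interval of its ratio at 2.5 μM, 0.803 to 1.10, includes 1, and at 5 μM the ratio was 0.820 (0.704 to 0.959). Its log2 changes of -0.09 and -0.27 are well inside the robust SD of 0.892 among genes of like level. SCN9A, a pore subunit of sensory neurons, was at 0.701, 0.557 and 0.351 FPKM. The beta subunit gene SCN4B was at 0.220 FPKM in DMSO and listed at 0 in both JG231 libraries.

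Calcium channel alpha1 subunits, which form the pore, were lower by the largest factor among the calcium channel roles. Their sum was 6.46 FPKM in DMSO against 2.501 and 1.65 at 2.5 and 5 μM, or 0.387 and 0.256 of DMSO. The 3 that could be called were lower at each dose, but CACNA1I and CACNA1E were over 1 FPKM in the DMSO library only and could not have been called higher. Of all genes 43.4% were lower at 2.5 μM and 45.1% at 5 μM. CACNA1B, the N-type channel of nerve terminals, was at 2.52, 1.42 and 1.004 FPKM, with ratios of 0.563 (0.483 to 0.659) and 0.398 (0.338 to 0.469). Its log2 changes were -0.79 and -1.25, against a robust SD of 0.799 among genes of like level. CACNA1I, a low-voltage-activated T-type channel, was at 1.43, 0.541 and 0.116 FPKM. CACNA1E, the R-type channel, was at 1.39, 0.0591 and 0.196 FPKM, with about 367, 20 and 77 fragments and ratios of 0.0425 (0.0260 to 0.0674) and 0.141 (0.108 to 0.180). CACNA1D, an L-type channel of endocrine cells, stayed below 1 FPKM, at 0.764, 0.458 and 0.293, and it overlaps the expressed gene CHDH on the other strand.

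The alpha2delta subunits carry alpha1 to the plasma membrane. They summed to 12.5, 6.90 and 7.29 FPKM, and 3 of the 4 genes were expressed. CACNA2D2 was at 3.98 FPKM in DMSO against 0.621 and 0.447 at 2.5 and 5 μM, with about 365, 72 and 61 fragments. Its ratios were 0.156 (0.119 to 0.201) and 0.112 (0.0838 to 0.147), and its log2 changes of -2.50 and -2.90 were the most negative among expressed channel genes, against a robust SD of 0.764. CACNA2D1 was at 6.25, 3.84 and 4.50 FPKM, with ratios of 0.614 (0.551 to 0.685) and 0.720 (0.651 to 0.796). CACNA2D3 was at 2.25, 2.44 and 2.34 FPKM, with intervals of 0.865 to 1.36 and 0.835 to 1.30 that include 1. As deposited CACNA2D3 was slightly above DMSO, and below it when mitochondrial and small RNA genes were left out of the totals.

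Beta subunits bind alpha1 in the cytoplasm. CACNB3 was at 4.11 FPKM in DMSO against 2.05 and 3.997 at 2.5 and 5 μM. The ratios were 0.499 (0.393 to 0.626) and 0.973 (0.807 to 1.17), so that only the interval at the lower dose left out 1. Its log2 change there, -0.968, lay just within 2 robust SDs of genes of like level, the SD being 0.488. CACNB1 was at 1.2004, 0.851 and 0.621 FPKM. Most gamma subunits act on AMPA-type glutamate receptors rather than on calcium channels. CACNG4 was the most abundant calcium channel gene by name in each library, at 8.83, 7.80 and 5.74 FPKM, with a ratio of 0.650 (0.575 to 0.739) at 5 μM. CACNG5 was at 1.14, 0.187 and 0.571 FPKM. CACNG1, a skeletal muscle subunit, was listed at 0 in DMSO and at 0.116 and 1.15 FPKM with JG231, from about 3 and 36 fragments, so no fold is given.

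**Figure D3:**
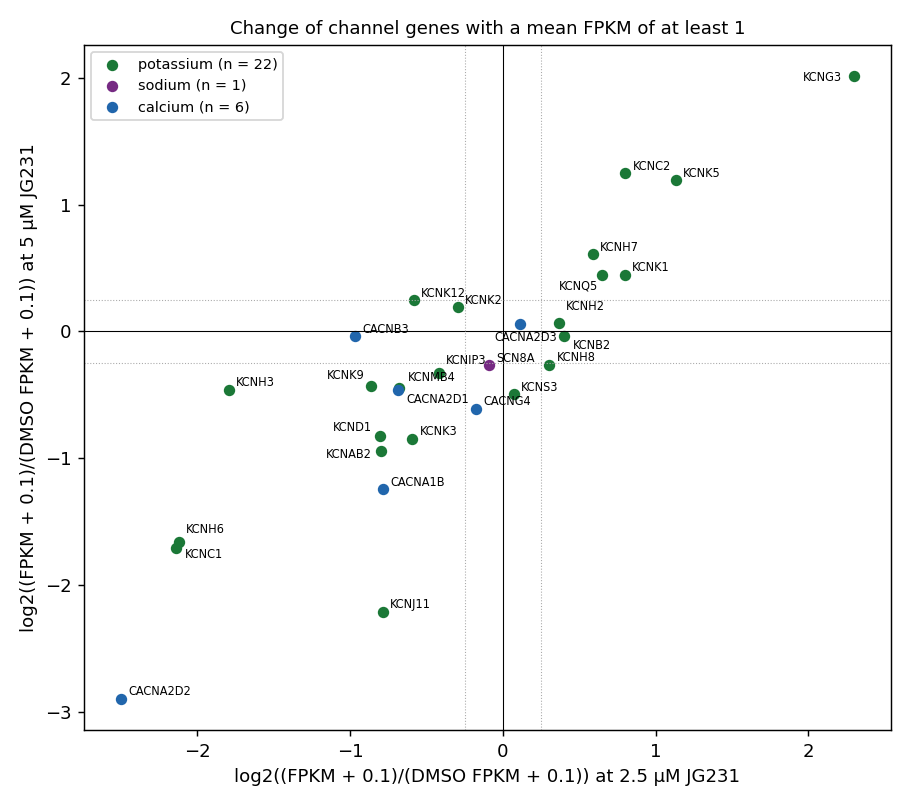
Log2 change against DMSO at 2.5 μM (x axis) and 5 μM (y axis) of the expressed channel genes, apart from any not reported here, colored by class, with dotted lines at 0.25. Both axes use the same DMSO library, and KCNG3 lies at 2.30 and 2.02 while CACNA2D2 lies at -2.50 and -2.90.

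Channel genes are long, and long transcripts were lower in the JG231 libraries. The median canonical transcript length was 4219 bases for the 30 channel genes and 3298 bases for expressed protein-coding genes. Across the 11200 expressed protein-coding genes, log2 change and length had a Spearman correlation of -0.26 at the lower and -0.37 at the higher dose, as a description over genes that share libraries. Among the 30 channel genes it was -0.13 at each dose. After the length trend of protein-coding genes was subtracted, the median of the potassium channel genes was -0.24 and -0.25, and that of the calcium channel genes -0.43 and -0.34. SCN8A, with a canonical transcript of 11559 bases, then turned from -0.09 and -0.27 to 0.30 and 0.35. CACNA2D1 at 5 μM turned from -0.46 to -0.03, which ended its lower call. KCNK5 stayed at 1.18 and 1.27 and CACNA2D2 at -2.31 and -2.60. The part of length in the other differences was not tested.

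**Figure D4:**
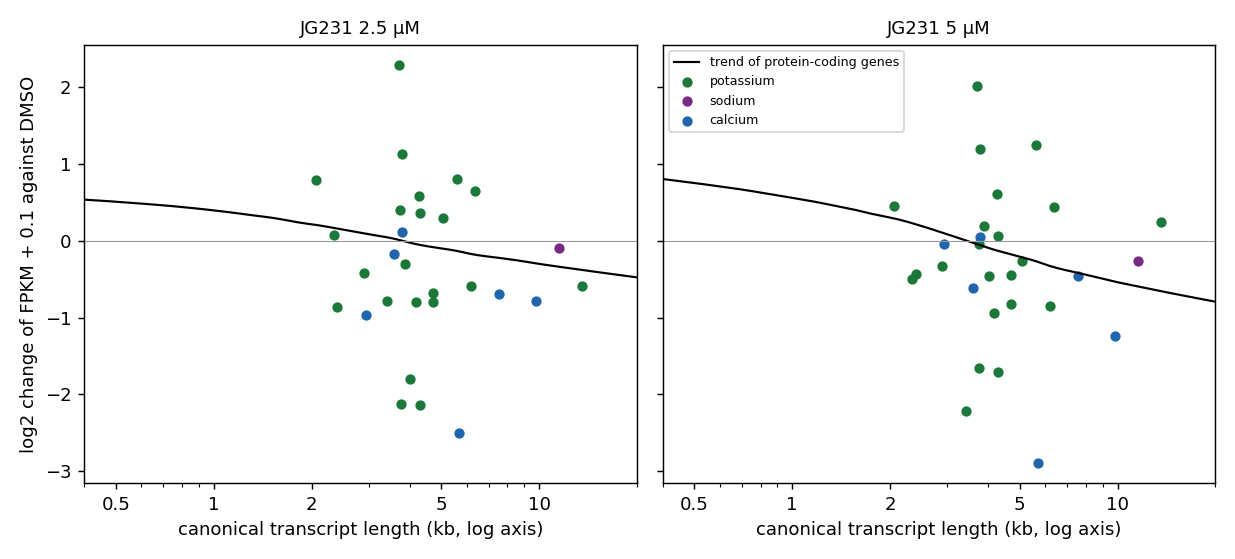
Log2 change against DMSO plotted over canonical transcript length (log axis) for the expressed channel genes, apart from any not reported here, 1 panel per dose, with the lowess trend of protein-coding genes as a line. Points below the line, such as CACNA2D2 and KCNH6, were lower than protein-coding genes of the same length.

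Proteins that anchor, modify or inhibit channels formed a list of 36, of which 19 were expressed. At 2.5 μM 8 of 22 were called higher and 11 lower, and at 5 μM 6 of 21 were called higher and 12 lower, with medians of -0.24 and -0.38. Over 1 FPKM in DMSO but not at the dose compared were 4 of the 11 lower genes and 5 of the 12. Of all genes 36.4% were higher and 43.4% lower at 2.5 μM, and 36.5% and 45.1% at 5 μM. NEDD4, a ubiquitin ligase that acts on sodium channels, was at 1.24 FPKM in DMSO against 9.22 and 8.86 at 2.5 and 5 μM. GEM, a small GTPase that inhibits voltage-gated calcium channels through their beta subunits, was at 1.36, 5.47 and 9.59 FPKM. Their ratios at 5 μM were 7.14 (5.91 to 8.76) and 7.04 (5.22 to 9.65). ANK2, an ankyrin that ties channels to the cytoskeleton, was at 7.28, 1.92 and 1.06 FPKM.

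Of 18 genes of intracellular calcium release, store-operated entry and calcium pumps, 10 were expressed. At each dose 1 of 11 was called higher, with 7 called lower at 2.5 μM and 8 at 5 μM, and the medians were -0.61 and -1.25. Of the lower genes, 1 of 7 and 3 of 8 were over 1 FPKM in DMSO but not at the dose compared. The lower shares of all genes were 43.4% and 45.1%, and the higher ones 36.4% and 36.5%. ATP2A3, a pump that refills the endoplasmic reticulum, was at 30.4 FPKM in DMSO against 5.27 and 5.44 at 2.5 and 5 μM. The release channel ITPR3 was at 27.99, 14.3 and 11.2 FPKM and the store-operated channel gene ORAI2 at 2.88, 1.09 and 0.625 FPKM. The gene called higher was ORAI1, the pore of store-operated entry, at 16.4, 29.97 and 35.8 FPKM. Among 11 other cation channel genes of the voltage-gated superfamily, 5 of 6 were called lower at 2.5 μM, and 5 of 7 lower and 2 higher at 5 μM, against 43.4% of all genes lower at 2.5 μM and 45.1% lower and 36.5% higher at 5 μM. At each dose 3 of these 5 lower genes were over 1 FPKM in DMSO but not at that dose, and 1 of the 2 higher genes was over 1 FPKM at 5 μM but not in DMSO. The pacemaker channel gene HCN3 was at 15.9, 10.5 and 9.92 FPKM, its relative HCN2, called higher at 5 μM, at 7.53, 6.84 and 11.8 FPKM, and the lysosomal channel gene TPCN1 at 8.87, 4.05 and 2.74 FPKM.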

How the data were processed

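The data are 3 RNA-seq libraries of H660 cells, 1 per condition, after 24 h in DMSO, 2.5 μM JG231 or 5 μM JG231. According to the methods of the study, the authors used HISAT for alignment and StringTie for quantification, and the deposited values are FPKM, fragments per length and depth. The submitters' processing notes name HISAT2, featureCounts and GRCh38 (hg38) without versions. Values are corrected for length and depth but not scaled between libraries. The labels describe stranded libraries, and whether counting used strand is not stated.

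Identifiers were looked up in GENCODE release 44 (58207 of 58735 genes, and 139 of 139 channel genes, 136 of them protein-coding). The channel genes and lists were chosen with earlier results of these data known. A pseudocount of 0.1 was used. Calls needed an FPKM over 1 in either library and a log2 change over 0.25, and medians were taken over expressed genes, with a mean FPKM of 1 or more. Since the deposited FPKM are not counts, no count model was used. One fragment was worth 62.2, 49.1 and 41.6 FPKM bp in the DMSO, 2.5 μM and 5 μM libraries, which left 89.8%, 87.4% and 86.0% of low values of single-transcript genes within 0.1 of a whole number. Fragments used canonical length so they are rough where a gene has several transcripts. Intervals are 95% exact binomial (Clopper-Pearson) intervals of the FPKM ratio without pseudocount. Genes with 3 fragments or fewer are given no fold. The robust SD is 1.4826 times the median absolute deviation over the 500 genes nearest in mean FPKM. The length trend was fitted by lowess with a fraction of 0.3. Promoter windows matched 99 channel genes by symbol.

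Members named by rule were the 5 most abundant of each class, up to 5 higher and 5 lower at both doses, every sodium or calcium channel gene over 1 FPKM, genes over 1 FPKM in a condition and at 0 in another, those next to the filter, and up to 3 per list. A few genes that this rule selects are not reported here and are left out of the figures of single genes. The other members were named after their values were seen, as were ABCC8, ORAI1 and REST. Alternatives were other pseudocounts and filters, a threshold of 1, rescaling, centring on the median gene, removal of the length trend and leaving out genes without a protein. Scripts were tested on simulated data. They ran in Python 3.11.15 with pandas 2.3.3, numpy 2.4.6 and scipy 1.17.1. The lowess fit came from statsmodels 0.14.6, and matplotlib 3.10.9 drew the figures.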

Additional observations from a re-analysis of the deposited data

How the results depend on the processing

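No paired analysis was possible because each condition has 1 library, and for the same reason no library could be left out. Of 360 recomputed changes of 30 named channel genes, 287 were counted as staying, 71 as moving and 2 over 0.25 in size as reversed. These reversals came with the length trend removed, where SCN9A at 2.5 μM became 0.055 and SCN8A at 5 μM 0.35. A change stayed when it moved by less than the distance from the middle of its counting interval to its end. For CACNG1 and SCN4B, at 0 in a library compared, the interval has no end on 1 side. Their changes could not be counted as moving, so the 287 include changes that this rule could not test. At 5 μM CACNG1 went from 3.64 to 1.10 with a pseudocount of 1 and to 6.86 with 0.01. SCN4B went from -1.68 to -0.29 and -4.52. Smaller changes that crossed 0 were those of SCN8A and KCNS3 at 2.5 μM and of CACNA2D3 at both doses. The sodium channel median, which is SCN8A alone, became 0.30 and 0.35, and the calcium channel median -0.43 at 2.5 μM. Without a filter, 23 channel genes were called higher and 63 lower at 2.5 μM and 19 and 61 at 5 μM, against 13.4% and 19.9%, and 12.2% and 20.8%, of 58735 genes, of which 34599 were at 0 throughout. This gave a potassium channel median of -0.79 at 2.5 μM. With a mean FPKM of at least 5, the calls were 3 higher and 3 lower at 2.5 μM and 2 and 5 at 5 μM. The potassium channel median at 2.5 μM then reversed to 0.073 over 7 genes, and the calcium channel value was -0.18, which is CACNG4 alone. With a mean FPKM of 1 or more, chosen after seeing the data, 6 were called higher at 5 μM. A threshold of 1 gave 2 higher and 11 lower at 2.5 μM and 6 and 10 at 5 μM. With libraries rescaled to a common sum, the log2 ratio of the potassium channel sum was -0.031 in place of -0.08 at 2.5 μM and -0.30 in place of -0.17 at 5 μM, and that of the calcium channel sum at 5 μM from -0.68 to -0.81.

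Leaving mitochondrial and small RNA genes out of the totals gave, at 2.5 μM, medians of -0.78, -0.36 and -1.02 and log2 sum ratios of -0.37, -0.64 and -1.02 for potassium, sodium and calcium channel genes. At 5 μM the medians were -0.74, -0.62 and -0.91, the log2 sum ratios -0.55, -0.80 and -1.06, and 6 genes were called higher. The share of higher calls moved from 28.6% to 19.4% at the lower dose and to 15.8% from 30.6% at the higher. The medians of all expressed genes also shifted with this scaling, to -0.28 and -0.38. With the length trend removed, 11 channel genes were called higher and 23 lower at 2.5 μM, a share of 32.4%. At 5 μM the calls were then 13 higher and 21 lower, a share of 38.2%. Calls of all genes were not counted under either setting. Apart from the positive values given, the sums and medians of the 3 classes stayed below DMSO in every alternative run. The cause of the changes was not tested. With 1 library per condition, library differences and treatment cannot be told apart, and most channel genes were too low for a precise ratio.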
